A study of Mus musculus with 6 samples.

Results

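A set of 42 genes of the chaperone system, which folds newly made and stress-damaged proteins, is described here: heat shock factors, HSP70, HSP90 and their partner proteins, a small heat shock protein, the chaperonin TRiC and its partner prefoldin. The members were chosen by gene symbol, not by measured values, and all 42 were among the 22192 genes of the count table. RNA with poly(A) tails was read from Raw 264.7, a macrophage-like line of mouse (BALB/c) origin. The cells behind 3 libraries received 200 µg/mL of ASPS-A1 for 24 h, an acidic plant polysaccharide isolated from leaves of Acanthopanax senticosus. The titles number these libraries ASPS-A1, ASPS-A2 and ASPS-A3, while the treatment label of each is ASPS-A1; they were taken as replicates by that label, and whether the titles mean different fractions is not settled by the labels. Cells of 3 libraries were labelled control, with no dose, time or vehicle in the labels. The series title places the question in immune regulation through TLR, MAPK and NF-κB signalling, and the 2 groups give 1 comparison. The labels do not say whether the 3 libraries of a group came from separate cultures, so the p-values measure only the spread between these libraries.

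HSP70 proteins bind exposed hydrophobic stretches of unfolded chains and release them in a cycle driven by ATP, in which J-domain proteins deliver clients and exchange factors replace ADP. HSP90 acts later on kinases and steroid receptors with a changing set of co-chaperones, while TRiC, a double ring of different subunits, encloses actin and tubulin chains that prefoldin brings to it. Hsf1 is the main transcription factor of the heat shock response and binds heat shock elements, alternating copies of a short unit, in the promoters of inducible chaperone genes. The name cytosolic does not cover every member, since Hspd1 and Hspe1 (the HSP60 and HSP10 chaperonin) and Hspa9 (a mitochondrial HSP70) work in mitochondria.

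Promoter windows from 250 bases before to 50 bases after an annotated start were found in RefSeq (GRCm38.p6) for 35 of the 42 members, 45 windows in all. The authors' own genome build is not given in the sources used here, so these windows serve only for sequence. A pair of heat shock element units (GAANNTTC or TTCNNGAA, either strand) stood in 42.2% of the members' windows and in 15.1% of all 32851 windows. A run of 3 alternating units, which contains such a pair, stood in 15.6% of the members' windows and in 0.603% of all windows. In windows of the genes tested below, the shares were 11.9% for a pair and 0.456% for a run of 3. The members' windows with a run are not all separate. Hsph1 and Dnajb6 each have overlapping windows that hold the same run, and Hspd1 and Hspe1 hold the same run. The box CCAAT, searched as a comparison motif, stood in 40% and 37.4%. The stretches below are shown because they hold the runs of 3 or more units, and because the Hspa1a and Hspa1b genes, which encode inducible HSP70, could not be told apart in this sequence. Capitals mark the units.
Hspe1 (chr1:55088034-55088101, plus strand; the same bases lie upstream of Hspd1 on the other strand): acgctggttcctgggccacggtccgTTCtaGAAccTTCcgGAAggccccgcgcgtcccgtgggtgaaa
Dnajb6 (chr5:29735827-29735889, plus strand): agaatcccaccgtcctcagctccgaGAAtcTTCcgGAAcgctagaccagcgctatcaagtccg
Hsph1 (chr5:149636286-149636394, minus strand): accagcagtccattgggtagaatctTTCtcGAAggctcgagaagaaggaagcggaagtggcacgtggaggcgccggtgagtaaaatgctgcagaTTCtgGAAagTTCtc
Chordc1 (chr9:18292238-18292296, plus strand): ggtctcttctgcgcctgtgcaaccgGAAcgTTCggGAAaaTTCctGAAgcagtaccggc
Hspa1a (chr17:34972228-34972285, minus strand): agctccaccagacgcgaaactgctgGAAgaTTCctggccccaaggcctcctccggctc
Hspa1b (chr17:34959310-34959367, minus strand): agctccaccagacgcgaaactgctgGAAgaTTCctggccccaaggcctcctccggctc

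Hspd1 and Hspe1 are divergent genes. From 1 of the 2 annotated Hspd1 starts the Hspe1 start lies 216 bases away, and the 285 bases that both windows cover include the same run of units; the window of the other Hspd1 start holds no pair. The genes share 112 nt of exon sequence. The Hspa1a and Hspa1b windows differed at 4 of 300 bases, and the stretch printed for them was identical. Members with a run of 3 units were not all called alike in the test described next. Hspd1, Hspe1 and Dnajb6 were higher with ASPS-A1, Hsph1 and Chordc1 did not pass the test, and none was lower. The median log2 fold change of these 5 members was 0.32. Among the 10 tested members with a pair but no run of 3, 9 were higher, none was lower and the median was 0.45. Among the 18 with no pair, 15 were higher and 2 lower, with a median of 0.35. Of all 33 tested members with a window, 27 were higher and 2 lower, with a median of 0.37. Over all genes tested the shares were 32.4% higher and 33% lower. The 5 members with a run of 3 ranged from −0.07 (Hsph1) to 1.05 (Hspe1), and their median is the value of Dnajb6. With the length and GC offsets described below Dnajb6 stood at 0.02, and at 0.30 with the longest transcript. Whether the 3 classes differ was not tested. Hsf1, Hspa8, Hspa9, Hsp90aa1, Hsp90ab1, Cct4 and Pfdn1 had no window, so they are in no class, and all were higher. Dnajb1 is in the class with no pair. A match is a description of letters in the window.

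**Figure D1:**
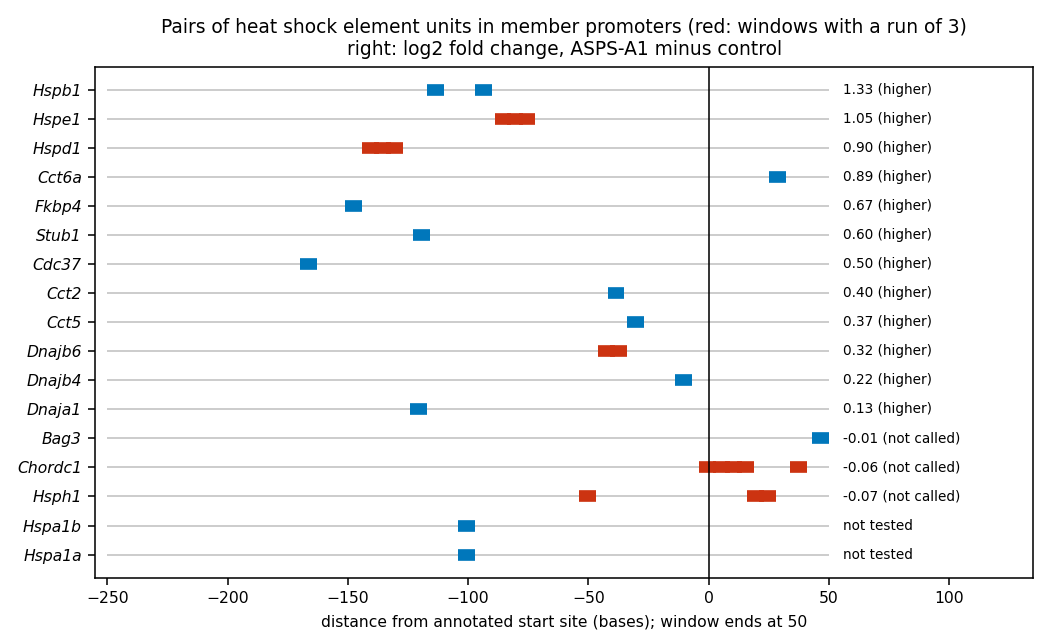
Pairs of heat shock element units (short bars) along 1 promoter window for each of the 17 members that hold a pair, by distance in bases from the annotated start site; red marks windows with a run of 3 units. The log2 fold change of the gene stands at the right, and the 5 members with a run of 3 spread from 1.05 (Hspe1) to −0.07 (Hsph1).

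Library totals ran from 19989318 to 26137127 counts, and 11686 genes were abundant enough to test. Macrophage markers summed to 3076 to 3190 CPM (counts relative to the TMM-scaled library total) with ASPS-A1 and 2189 to 2210 in control, with 6 of 8 higher and Csf1r and Ptprc not passing the test. Epcam, Krt8, Cd3e, Ly6g and Mpo, markers of other cell types, had no count in any library. The other epithelial markers, Krt18 and Cdh1, had at most 3 counts in a library, and Cd3d (T cells) had 1 to 12. The fibroblast markers Col1a1, Col1a2 and Dcn had 1 to 6 counts in each library. The endothelial marker Pecam1 stood at 13.1 CPM against 7.49, while Cdh5 had at most 3 counts in a library. In these bulk libraries a change in the number of cells of a type and a change in RNA per cell cannot be told apart.

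Most of the chaperone genes were moderately higher with ASPS-A1. Of the 42 members, 40 were tested, and Hspa1a and Hspa1b were too low. By the quasi-likelihood test of edgeR (two-sided, Benjamini-Hochberg adjusted p under 0.05 over all 11686 genes), 34 of the 40 were higher, 2 were lower (Hspa4l and Fkbp5) and 4 did not pass (Hsph1, Hspa14, Bag3 and Chordc1). Among all genes tested 32.4% were higher and 33% lower. At 1.5-fold or more, 11 members were higher and 1 was lower, against 12.8% and 14.5% of all genes. The 3 treated and the 3 control libraries did not overlap for 35 of the 40 members, against 68.5% of all genes. The members' median log2 fold change was 0.37, and that of all genes was −0.02. Together the members took 2.02% to 2.08% of the counts with ASPS-A1 and 1.79% to 1.82% in control.

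**Figure D2:**
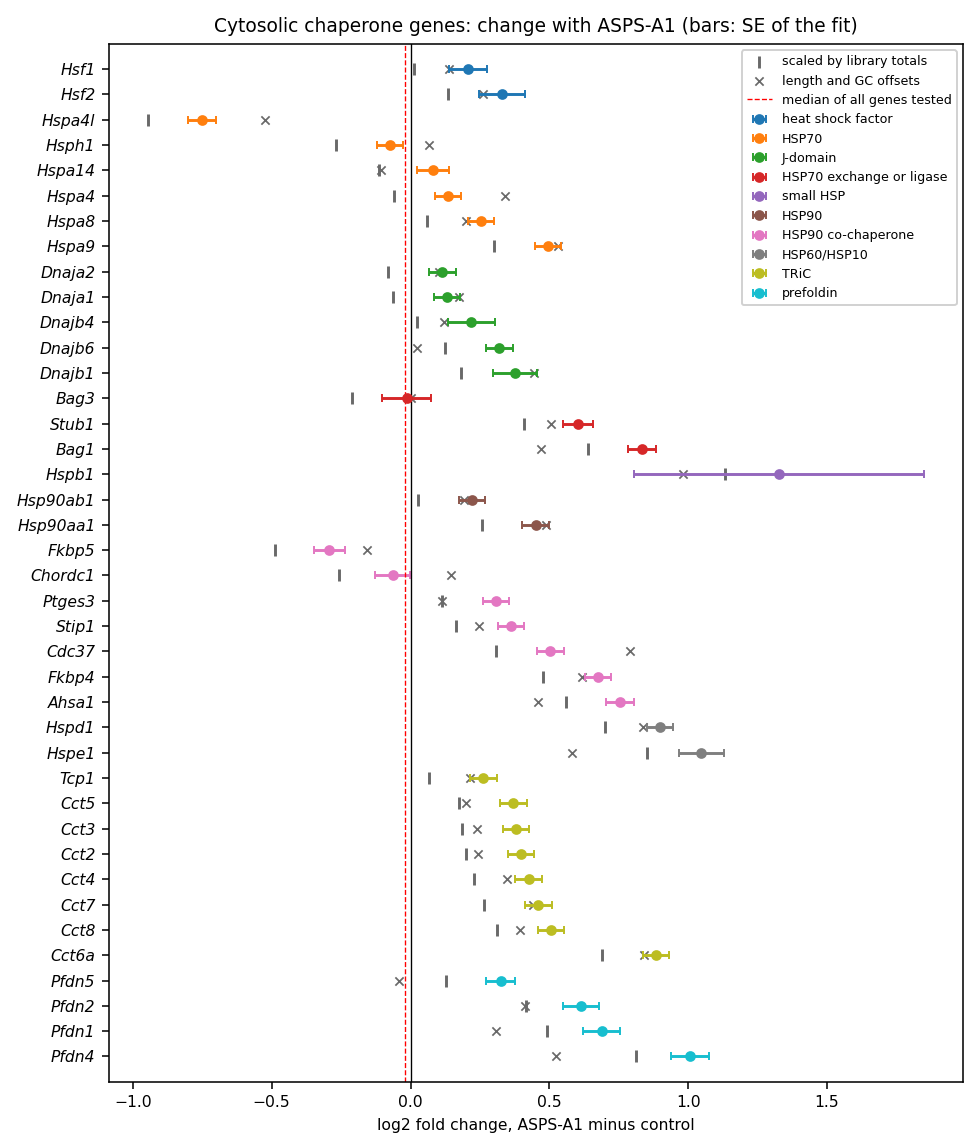
Log2 fold change (ASPS-A1 minus control) of the 40 tested members, grouped by role, with the standard error of the fit (3 libraries per group). Vertical ticks give the value after scaling by library totals and crosses the value after correction for length and GC content; the 2 lower members, Hspa4l and Fkbp5, lie left of 0, and most others lie right of it.

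How many members pass depends on the scaling. Scaling by library totals alone, without composition factors, moved the median of all genes by −0.20 and the members by about as much, and relative to 0 it left 24 members higher and 5 lower. Its 10 lost calls were Hsf1, Hsf2, Hspa4, Hspa8, Hsp90ab1, Hspb1, Dnaja1, Dnaja2, Dnajb4 and Tcp1. Its 3 gained calls, all lower, were Hsph1 (−0.27), Bag3 (−0.21) and Chordc1 (−0.26). Log2 fold changes fell with transcript length in these libraries (Spearman's rho −0.39 across 11201 genes and −0.58 across the 40 members, both across genes in the same libraries). With offsets that remove the trend on length and GC content of the principal transcript, 30 members were higher and 2 lower, and 31 of the 36 calls were kept; Hsf1, Hspb1, Dnajb4, Dnajb6 and Pfdn5 were lost and Chordc1 was gained. With the longest transcript in place of the principal one, the measure tried first, 31 were higher and 3 lower; Hspb1, Dnaja2, Ptges3 and Pfdn5 were lost, and Hspa14 (lower) and Hsph1 (higher) were gained.

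The transcription factors moved little. Hsf1 stood at 50.2, 51.7 and 48.0 CPM with ASPS-A1 and at 40.5, 43.7 and 45.5 CPM in control (log2 fold change 0.21, SE 0.07, adjusted p 0.00712 by edgeR). Hsf2, a related factor, stood at 37.6, 34.7 and 30.5 CPM against 28.6, 28.7 and 24.7 (log2 fold change 0.33, SE 0.08). For both genes every treated library was above every control library. The Hsf1 call was lost without control replicate 1, with library totals (0.01) and with the offsets (0.14, adjusted p 0.0532 by edgeR), and was kept with the longest transcript (0.25, adjusted p 0.00076 by edgeR).

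The HSP70 group did not move as 1 block: 3 of the 6 tested members were higher, 1 was lower and 2 did not pass, with a median of 0.11, and Hspa4 and Hspa14 were below 0 when scaled by library totals. Hspa8, the constitutive cytosolic HSP70, stood at 4557, 4717 and 4819.7 CPM with ASPS-A1 and 3944, 3899 and 3979.6 CPM in control (log2 fold change 0.25, SE 0.05, adjusted p 5.19e-06 by edgeR). Scaled by library totals Hspa8 stood at 0.06 and was not called. Per kb of principal transcript it was the most abundant member, at 1646 CPM per kb in control. Inducible HSP70 was almost absent: Hspa1a had 0, 1 and 0 counts with ASPS-A1 and 1, 0 and 0 in control, and Hspa1b had 2, 0 and 3 against 0, 1 and 2. At these counts no difference in either direction was detectable. Of 100-base windows in their transcripts, 48.6% for Hspa1a and 49.9% for Hspa1b also occurred in other genes, for the most part in each other, and how the authors counted such reads is not given in the sources used here. For Hspa8 the share was 62.8%, mostly with the pseudogene Gm15459.

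Hspa4l and Hsph1, with Hspa4, are HSP110-type proteins that act as exchange factors for HSP70. Hspa4l stood at 138, 125 and 143 CPM with ASPS-A1 and at 219, 241 and 223 CPM in control. The groups did not overlap, and the level was 1.68-fold lower (adjusted p 3.83e-17 by edgeR; log2 fold change −0.75, SE 0.05), the largest fall among the tested members. Hspa4, its closest relative here, was 1.10-fold higher (log2 fold change 0.13), a call lost when ASPS-A1 replicate 1 or control replicate 3 was left out and with library totals (−0.06). With the offsets Hspa4 stood at 0.34, and at 0.28 with the longest transcript, both called. Within a library the ratio of Hspa4l to Hspa4 counts was 0.350 ± 0.015 with ASPS-A1 and 0.646 ± 0.026 in control (SD, n = 3; exact permutation p 0.1, the smallest that 3 against 3 can give; 0.15 adjusted over 6 ratios). This pair was chosen after its values were seen. Hsph1 stood at 215, 207 and 227 CPM against 232, 227 and 224, overlapping groups (adjusted p 0.175 by edgeR). Hspa9, the mitochondrial HSP70, was higher by 0.49 on the log2 scale, and Hspa14, which works at the ribosome, was not called (0.08).

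All 5 tested J-domain genes passed in the same direction, with small changes and a median of 0.22, though Dnaja1 and Dnaja2 were below 0 when scaled by library totals. Dnajb1, the classical partner of HSP70 in stressed cells, stood at 33.9, 38.3 and 35.1 CPM against 27.2, 26.2 and 29.0 (log2 fold change 0.38, SE 0.08). Dnajb6 followed at 0.32, Dnajb4 at 0.22, Dnaja1 at 0.13 and Dnaja2 at 0.12, the last with overlapping groups. Calls of Dnaja1, Dnaja2 and Dnajb4 were lost when single libraries were left out. Of 100-base windows, 34.9% for Dnajb6 and 25% for Dnaja1 also occurred in other genes. With the offsets Dnajb6 stood at 0.02 and Dnajb4 at 0.12, neither called, while with the longest transcript they stood at 0.30 and 0.36, both called.

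The HSP70 exchange factors Bag1 and Bag3 and the ligase Stub1 differed among themselves. Bag1, an exchange factor that also binds the proteasome, stood at 217, 232 and 217 CPM with ASPS-A1 and 128, 127 and 118 CPM in control (log2 fold change 0.83, SE 0.05; 0.47 with the offsets, still called). Bag3, the stress-inducible family member linked to selective autophagy, stood at 23.5, 25.7 and 23.4 CPM against 25.7, 25.5 and 22.2 (−0.01, adjusted p 0.895 by edgeR), with overlapping groups. The ratio of Bag3 to Bag1 within a library was 0.109 ± 0.0017 with ASPS-A1 and 0.196 ± 0.0067 in control (SD, n = 3; exact permutation p 0.1, adjusted 0.15). Stub1, the ubiquitin ligase CHIP, was higher by 0.60. Of the Stub1 exon bases 42.3% are shared with Jmjd8 and Mir3082, and Jmjd8 was also higher (0.60), and reads could not be assigned between the overlapping genes here.

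Hspb1 (HSP27), a small heat shock protein that holds unfolded chains, was barely detected: 13, 14 and 14 counts with ASPS-A1 and 6, 5 and 11 in control. Its log2 fold change was 1.33 with an SE of 0.52 (adjusted p 0.0241 by edgeR), the largest and least precise value among the members. The call was lost in 4 of the 6 fits that left out a library, and 56.3% of its 100-base windows also occur in the pseudogene Hsp25-ps1.

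Both cytosolic HSP90 genes were higher, though the Hsp90ab1 call was lost when scaled by library totals (0.03). Hsp90aa1, the inducible form, stood at 1744, 1659.7 and 1889 CPM with ASPS-A1 and at 1267, 1292 and 1311 CPM in control (log2 fold change 0.45, SE 0.05). Hsp90ab1, the constitutive form, stood at 3068, 3184 and 3105 CPM against 2703, 2731 and 2593 (0.22, SE 0.05, adjusted p 4.90e-05 by edgeR). Neither pair of groups overlapped. The ratio of Hsp90aa1 to Hsp90ab1 was 0.568, 0.521 and 0.608 with ASPS-A1 and 0.469, 0.473 and 0.506 in control, 17.3% higher on average (exact permutation p 0.1, adjusted 0.15). Of the 100-base windows of Hsp90aa1 47.5% occur in other genes, mainly the pseudogene Gm12346.

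HSP90 co-chaperones were mostly higher: 5 of 7 rose, Fkbp5 fell and Chordc1 did not pass, with a median of 0.36. Ahsa1, which stimulates the ATPase of HSP90, was higher by 0.76 on the log2 scale. Fkbp4 (FKBP52), an immunophilin that helps steroid receptors, stood at 369, 405 and 378 CPM against 243, 244 and 235 (log2 fold change 0.67, SE 0.05). Fkbp5 (FKBP51), its relative and a glucocorticoid-responsive gene, stood at 87.0, 80.5 and 86.1 CPM against 103, 105 and 103 (log2 fold change −0.29, SE 0.05, adjusted p 8.02e-06 by edgeR). The groups did not overlap for either gene and pointed in opposite directions. Stip1 (HOP), which links HSP70 to HSP90, stood at 419, 441 and 416 CPM against 328, 339 and 327 (0.36). Cdc37, the kinase-specific partner, was higher by 0.50 and Ptges3 (p23) by 0.31. The offsets moved Ahsa1 to 0.46, Fkbp5 to −0.16, Cdc37 to 0.79 and Ptges3 to 0.11, all still called. With the longest transcript Ptges3 was not called (0.06). The principal transcript of Cdc37 was 7851 nt long, against a median of 2408.5 nt over the 40 tested members. The part of that length in its offset value was not tested. Of the 100-base windows of Ptges3 20.2% also occurred in other genes, mainly Ptges3-ps. Chordc1 stood at −0.06 (adjusted p 0.385 by edgeR), at 0.14 with the offsets (called higher, adjusted p 0.0286 by edgeR), at 0.07 with the longest transcript (not called) and at −0.26 with library totals (called lower).

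**Figure D3:**
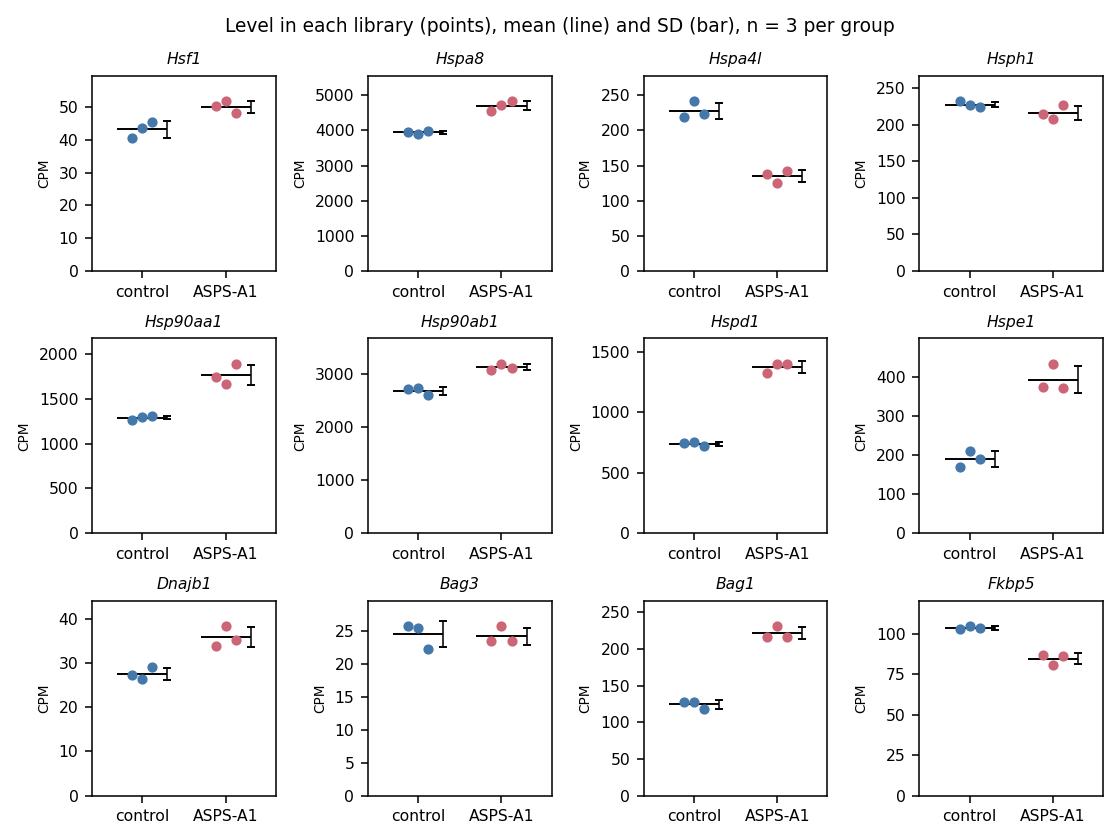
Level of 12 members in each library in CPM (TMM-scaled), 3 control and 3 ASPS-A1 libraries, with the mean (line) and SD (bar). Hspd1, Hspe1 and Bag1 show treated libraries well above control, Hspa4l and Fkbp5 below, and Hsph1 and Bag3 overlap.

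Both genes of the mitochondrial chaperonin rose. Hspd1 (HSP60), the ring subunit, stood at 1323, 1403 and 1403 CPM with ASPS-A1 and at 745, 753 and 719 CPM in control. Its level was 1.86-fold higher (log2 fold change 0.90, SE 0.05, adjusted p 1.87e-21 by edgeR). Hspe1 (HSP10), the lid, stood at 375, 435 and 372 CPM against 171, 211 and 189.7 (2.07-fold higher, log2 fold change 1.05, SE 0.08). Every treated library was above every control library for both genes. With the offsets the Hspe1 value was 0.58 and the Hspd1 value 0.84, both still called. The ratio of Hspd1 to Hspe1 did not separate the groups (exact permutation p 0.2). Of their 100-base windows, 26.9% for Hspd1 (mainly Hspd1-ps3) and 20.4% for Hspe1 (AC117239.2) also occurred in other genes.

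All 8 TRiC subunits rose, between 0.26 (Tcp1) and 0.89 (Cct6a) on the log2 scale, with a median of 0.41, and they took 0.472% to 0.495% of the counts with ASPS-A1 and 0.398% to 0.420% in control. Tcp1 stood at 549, 577 and 602 CPM against 485, 481 and 474. Cct2 stood at 929.8, 959 and 971 CPM against 750.2, 734 and 688 (0.40, SE 0.05). The values of Cct5 (0.37), Cct3 (0.38), Cct4 (0.43), Cct7 (0.46) and Cct8 (0.51) lay close to it. No treated library of any subunit was at or below a control library, although the Tcp1 call was lost when scaled by library totals. With the offsets all 8 were still called, from 0.20 (Cct5) to 0.84 (Cct6a), and with the longest transcript from 0.17 to 0.77.

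Cct6a had the largest change of the 8. It stood at 493, 513 and 501 CPM with ASPS-A1 and at 283, 272 and 261 CPM in control (1.85-fold higher, adjusted p 3.57e-21 by edgeR). Relative to the summed counts of the other 7 subunits its share was 0.108 ± 0.0025 with ASPS-A1 and 0.077 ± 0.0008 in control (SD, n = 3; exact permutation p 0.1, adjusted 0.15), a comparison chosen after the values were seen. Per kb of principal transcript it was the lowest subunit in control, at 111 CPM per kb against 183 (Cct8) to 370 (Cct2). With ASPS-A1 it stood at 205, still below Tcp1 at 235. Its exons share 15.3% of their bases with Psph and Snora15, and Psph was itself higher by 1.59. Tcp1 shares 16.9%, with genes that include Acat3 (0.99) and Mrpl18 (0.45), Cct8 6.22% with Usp16 (0.37) and Cct7 3.16% with Pradc1 (0.07, not called). The part of these overlaps in the values was not tested. No 100-base window of any of the 8 subunits occurred in another gene.

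**Figure D4:**
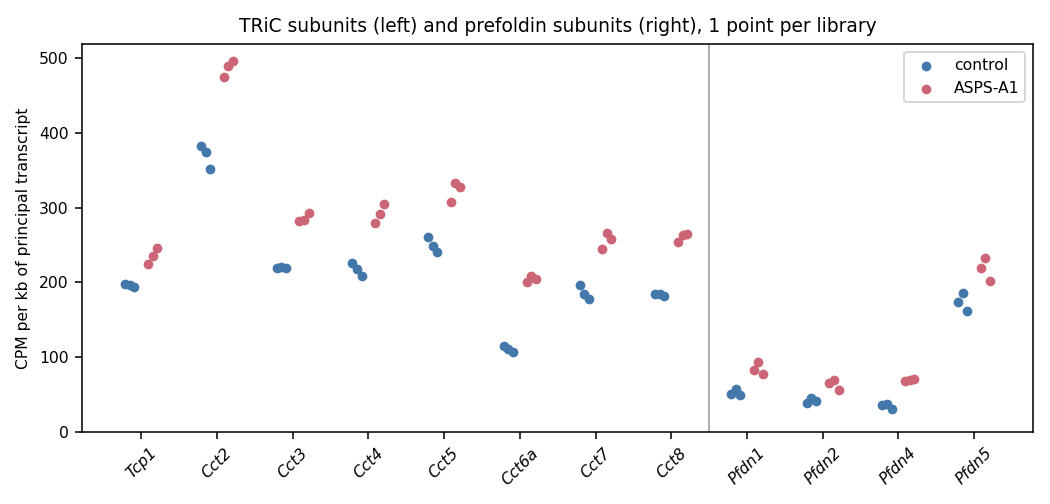
CPM per kb of principal transcript for the 8 TRiC subunits (left of the line) and 4 prefoldin subunits (right), 1 point per library, control and ASPS-A1 side by side. Cct2 is the highest and Cct6a the lowest TRiC subunit in control, and Cct6a has the largest ratio between groups (1.85-fold).

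All 4 prefoldin subunits in the set were higher, with a median of 0.65, but these values depend on the length trend. With the offsets Pfdn4 stood at 0.52, Pfdn2 at 0.41 and Pfdn1 at 0.31, all still called, and Pfdn5 at −0.04 (adjusted p 0.432 by edgeR). Pfdn4 stood at 64.1, 64.5 and 65.5 CPM against 33.1, 34.5 and 29.1 (2.01-fold higher, log2 fold change 1.01, SE 0.07). Pfdn1 was higher by 0.69 and Pfdn2 by 0.61. Pfdn5 stood at 233, 246 and 214 CPM against 185, 197 and 172 (log2 fold change 0.32, SE 0.05). These are short transcripts, of 935 to 1735 nt. Of the exon bases of Pfdn4 28.7% are shared with Cyp24a1 and Gm16796, and of Pfdn2 27.6% with Klhdc9; Cyp24a1 and Klhdc9 had no count in any library. Pfdn5 shares 11.8% with Myg1, which stood at 40.1 CPM against 27.6 (0.54), and the part of that overlap in the Pfdn5 value was not tested.

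Genes around these were less uniform. Of 57 further chaperone and co-chaperone genes 47 were tested, and 25 were higher, 8 lower and 14 not called, with a median of 0.17. The shares among all genes tested were 32.4% higher and 33% lower. With library totals 14 of these further genes were higher and 10 lower, with a median of −0.02. With the offsets 20 were higher and 10 lower. The largest rises were Hspb6 (0.67), Dnajc2 (0.64), a ribosome-bound J-domain protein, and Nudc (0.64), an HSP90 co-chaperone. The largest falls were Cct6b (−1.54, a variant TRiC subunit with 14 counts in all with ASPS-A1 and 56 in control), Bag5 (−0.65) and Dnajc5 (−0.54). Of the 13 actin and tubulin genes that encode TRiC clients, 6 were higher, 5 lower and 2 not called. These counts stand beside 32.4% higher and 33% lower among all genes tested. The summed level of the 13 was 7136 to 7779 CPM with ASPS-A1 and 5286 to 5559 in control. Actg1 (1.37) and Tubb3 (1.45) rose, and Tuba1c (−1.42) and Tubb4b (−0.84) fell. Tubb3 had only 109 counts in all with ASPS-A1 and 54 in control. The abundant Actb was also higher (0.89, 2218 CPM against 1198).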

How the data were processed

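The deposited table holds whole-number counts per gene symbol, 1 column per library. Per the submitters' processing notes, the authors used DESeq 1.38.3, HTSeq 0.9.1, HISAT2 2.1.0 and fastp 0.22.0. What build, annotation, strand setting and multi-mapping rule they used is not given in the sources used here. Genes were filtered with filterByExpr (minimum count 10, minimum total 15), scaled by TMM and tested with the quasi-likelihood test of edgeR 4.0.16 (robust) in R 4.3.3; DESeq2 1.42.0 was an alternative. The script was tested on simulated data. Common biological variation was 5.66%. CPM use TMM-scaled totals, and SE is the log2 fold change over the square root of F.

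The rule for members used gene symbols and no measured values. Earlier results of these data were nonetheless known when members, lists and tests were chosen. All members are named; values in every library are given for the members listed in the plan and the 5 called with the largest change in each direction. Alternatives were relative log expression factors, library totals, 2 other filters, no robust estimation, a replicate block, leaving out each library, and offsets for transcript length and GC content (lowess, span 0.3).

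Transcript lengths and exon overlap came from GENCODE M21, used by symbol only. For the offsets the longest transcript was tried first. The APPRIS principal transcript was adopted after that result had been seen, because the longest gave implausible lengths for some genes (Cct7, for example). The principal transcript was itself long for Cdc37 (7851 nt). Results with both transcripts are given. Same-numbered libraries had deviation correlations of −0.0138, 0.00709 and 0.00398, so they were not treated as pairs. No library copied another of its group: pairwise chi-square values over degrees of freedom were 4.35 to 7.11.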

Additional observations from a re-analysis of the deposited data

How the results depend on the processing

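The members' counts of 34 higher and 2 lower were the same with relative log expression factors, with DESeq2 and with a replicate block; leaving out 1 library gave 29 to 33 higher and 2 lower each time. Of the 36 calls, 21 higher and 2 lower held under every alternative run. Scaling by library totals gave 5 members lower. It gave 14 of the further chaperone genes higher and 10 lower, and 3 TRiC client genes higher and 6 lower. It put Hspa4 at −0.061, Hspa14 at −0.12, Dnaja1 at −0.064 and Dnaja2 at −0.080 on the log2 scale. The length and GC offsets gave Hspa14 −0.11, Hsph1 0.068, Bag3 0.00040, Chordc1 0.14 and Pfdn5 −0.040. The principal transcript used there was adopted after a first run with the longest transcript had been seen. That first measure gave Hspa14 −0.16, Hsph1 0.10, Chordc1 0.071 and Pfdn5 −0.044, with 3 TRiC client genes higher. Neither measure is a check that is independent of the data. With 1 library left out, TRiC client genes lower ranged from 3 (without ASPS-A1 replicate 1) to 5, and Bag3 from −0.085 to 0.020; the cause was not tested. No call is possible for Hspa1a and Hspa1b at this depth, and that of Hspb1 rests on 41 against 22 counts.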
